A study of Rattus norvegicus with 32 samples.

Results

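The genes described here serve protein folding and the stress response of the endoplasmic reticulum (ER), and were taken as the rows of the deposited count table that carried any of 35 listed gene symbols. Of the 35 symbols, 33 were found among 17327 gene rows, and all 33 genes were abundant enough to be tested among the 11002 genes tested. No row carried the symbols Derl2 or Ero1lb. Messenger RNA had been sequenced from livers of 32 rats of the Charles River Sprague Dawley strain, kept under basal conditions, in 8 groups of 4: KO males, KO females, WT males and WT females, each at 60 and at 30 days of age. KO rats are homozygous (Cbg-/-) for a CRISPR/Cas9 disruption of Serpina6, which encodes corticosteroid-binding globulin, the plasma carrier of corticosterone made by the liver. WT rats are Cbg+/+. The study asked what the protein does in the liver and how it bears on sex differences of the adult organ. How many founder lines were kept, and whether KO and WT rats were littermates, the sources used here do not say.

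Secreted and membrane proteins enter the ER through the Sec61 channel, are folded by luminal chaperones, lectins and disulphide isomerases, and leave in coated vesicles. Those that fail to fold are drawn back to the cytosol and degraded, a route known as ER-associated degradation. When folding capacity falls short, the membrane sensors IRE1 (Ern1), PERK (Eif2ak3) and ATF6 raise the transcription of chaperone and degradation genes and slow protein synthesis, which is known as the unfolded protein response. Hepatocytes make most plasma proteins and depend heavily on this machinery.

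Levels are CPM, the count of a gene as a share of all reads on genes, scaled with TMM factors; they are not divided by gene length, so levels are compared between livers and not between genes. Fold changes are given on the log2 scale ± SE, as fitted in edgeR over all 32 libraries and tested by quasi-likelihood, and a gene was said to have risen or fallen where the Benjamini-Hochberg adjusted p over the 11002 genes was below 0.05. Libraries held 12951969 to 21954929 reads on genes. Serpina6 had 25.5 to 131 CPM in the 16 KO livers and 421 to 1358 CPM in the 16 WT livers, so every KO library lay below every WT library. Albumin, which defines hepatocytes, had 127021 to 207041 CPM in all libraries. One library stood apart in what it held beside liver: KO replicate 1 of the 60-day females had 2277 CPM summed over 18 photoreceptor genes, against 4.17 to 12.8 CPM in the other 60-day females. The counts and named genes of the comparison between KO and WT 60-day females are given with and without it. In whole liver, fewer cells of a type and less RNA per cell cannot be told apart.

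In 60-day females 11 of the 33 genes were lower in KO than in WT livers and 0 were higher by edgeR. Of all genes tested 3.29% were lower and 3.48% were higher in that comparison. At an unadjusted p below 0.05 there were 20 lower genes and 1 higher gene, where 20.8% of all genes passed in either direction. The median log2 fold change of the 33 genes was -0.26, against 0.008 over all genes, and 30 of the 33 had a negative value. The genes that fell were 5 of the 9 luminal chaperones and their cofactors (Sdf2l1, Creld2, Hyou1, Manf and Hsp90b1), the lectin chaperone Calr, the isomerases Pdia3 and Pdia4, the degradation genes Derl3 and Syvn1, and the transcription factor Xbp1. The 3 translocation and export genes and the 3 ATF4 targets did not pass the test, and their values follow those of the others.

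**Figure D1:**
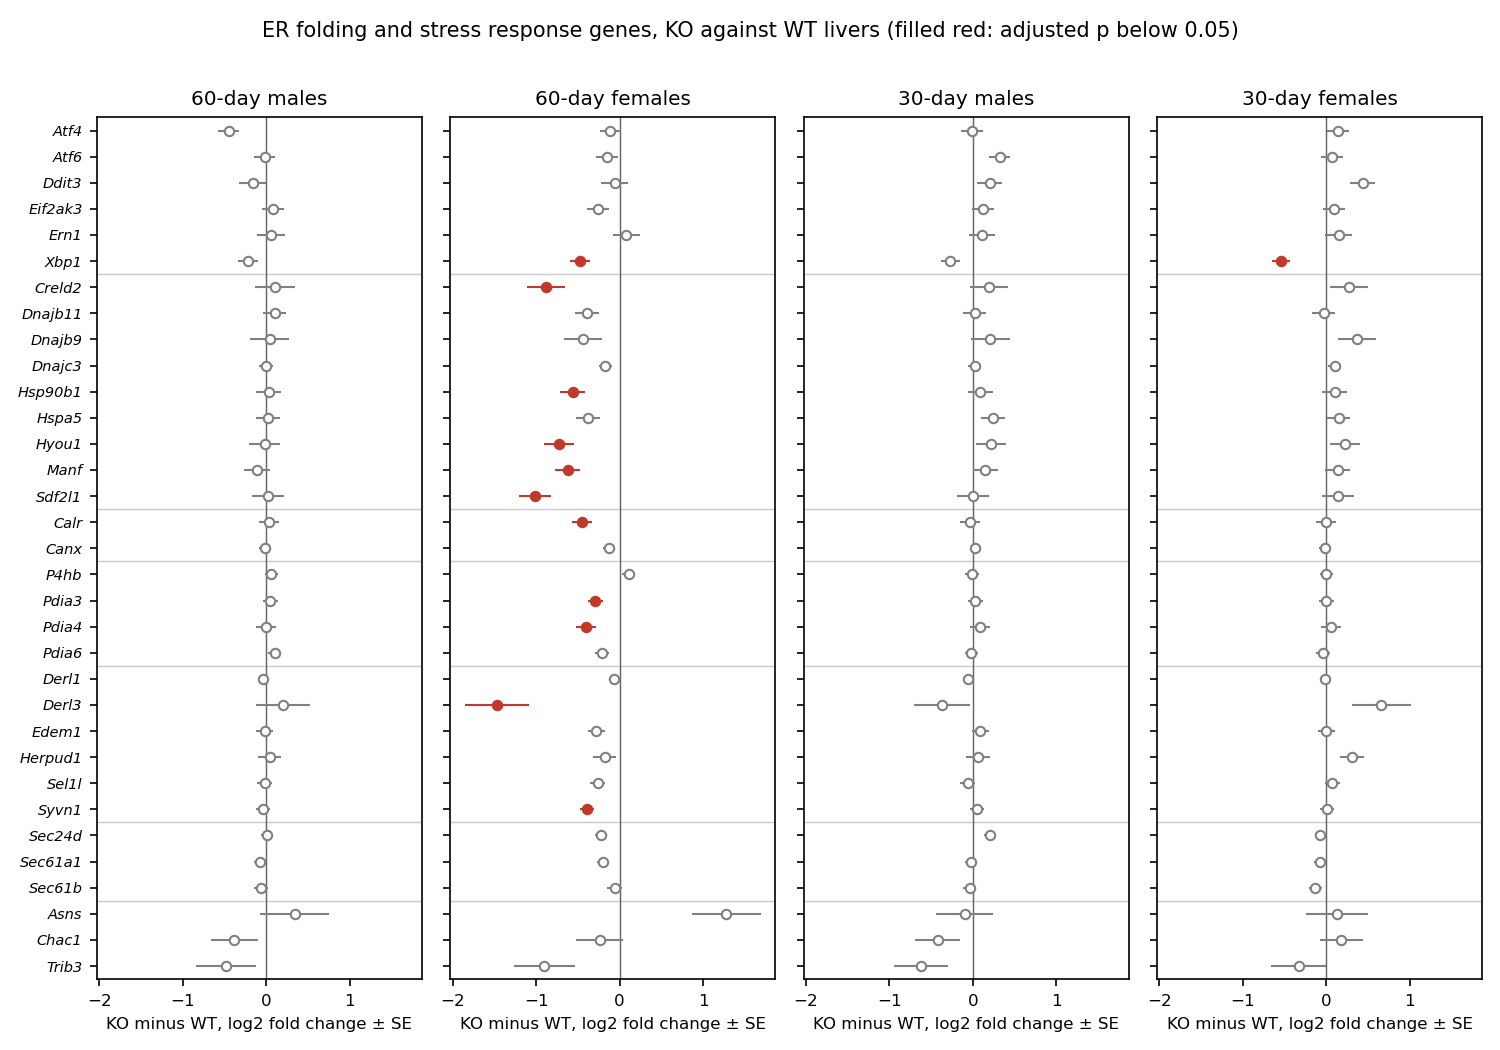
Log2 fold change (KO minus WT, x axis) ± SE of the 33 genes (rows, grouped by role from sensors at the top to ATF4 targets at the bottom) in 60-day males, 60-day females, 30-day males and 30-day females; filled red points have an adjusted p below 0.05. In 60-day females 30 of 33 points lie left of 0 and 11 are filled; the only other filled point is Xbp1 in 30-day females.

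Among the luminal chaperones, Sdf2l1, a partner of the BiP cochaperone Dnajb11, had 18.4, 23.7, 23.9 and 29.3 CPM in KO 60-day females and 23.9, 57.3, 43.6 and 67.4 CPM in WT 60-day females. The 4 KO livers were all low; of the WT livers replicate 1 lay within the KO range and the other 3 were above it. The log2 fold change of Sdf2l1 was -1.01 ± 0.19 (edgeR adjusted p = 0.00219), which is 2.02-fold lower in KO.

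Creld2, an ER-resident protein induced by folding stress, had 26.5, 33.7, 31.7 and 40.6 CPM in KO and 29.3, 83.7, 42.1 and 88.6 CPM in WT. WT replicates 2 and 4 were far above every KO liver, and WT replicate 1 lay inside the KO range. Its log2 fold change was -0.88 ± 0.23 (adjusted p = 0.0217).

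Hyou1, a large chaperone related to Hsp70 that helps BiP exchange its nucleotide, had 170, 195, 197 and 233 CPM in KO and 200, 418, 235 and 467 CPM in WT. The same 2 WT livers, replicates 2 and 4, stood far above the rest, while replicate 3 only just passed the highest KO liver. The log2 fold change was -0.73 ± 0.18 (adjusted p = 0.0134).

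Manf, a small stress-induced protein that binds BiP and can be secreted, had 41.5, 47.8, 53.4 and 55.1 CPM in KO and 49.3, 89.2, 66.2 and 99.3 CPM in WT. Here 3 of the 4 WT livers were above every KO liver, and the log2 fold change was -0.62 ± 0.15 (adjusted p = 0.0100). Hsp90b1, the ER form of Hsp90 (GRP94), had 521, 591, 578 and 684 CPM in KO and 556, 999, 656 and 1284 CPM in WT. The KO and WT ranges overlapped in 2 WT livers, and the log2 fold change was -0.56 ± 0.15 (adjusted p = 0.0230).

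Hspa5 (BiP), the main Hsp70 chaperone of the ER lumen, did not pass the test. It had 790, 920, 875 and 1056 CPM in KO and 799, 1494, 955 and 1498 CPM in WT, with a log2 fold change of -0.38 ± 0.14 (adjusted p = 0.0963). WT replicates 2 and 4 were again high and replicates 1 and 3 lay inside the KO range. The J-domain cochaperones also did not pass: the log2 fold change was -0.39 ± 0.14 for Dnajb11, -0.44 ± 0.23 for Dnajb9 and -0.17 ± 0.08 for Dnajc3 (adjusted p = 0.0895, 0.271 and 0.251 in that order).

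Calr, the soluble lectin chaperone calreticulin, had 796, 963, 873 and 970 CPM in KO and 958, 1211, 1071 and 1664 CPM in WT. Only WT replicate 1 fell within the KO range, and the log2 fold change was -0.45 ± 0.12 (adjusted p = 0.0179). Its membrane-bound relative calnexin, Canx, had a log2 fold change of -0.13 ± 0.07 (adjusted p = 0.325).

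The disulphide isomerases differed among themselves. Pdia3, which works with calreticulin and calnexin on glycoproteins, had 487, 576, 503 and 596 CPM in KO and 560, 692, 584 and 813 CPM in WT (log2 fold change -0.29 ± 0.09, adjusted p = 0.0442). Pdia4 had 327, 345, 320 and 434 CPM in KO and 381, 536, 380 and 579 CPM in WT (log2 fold change -0.40 ± 0.12, adjusted p = 0.0397). For both, WT replicates 2 and 4 exceeded every KO liver and WT replicates 1 and 3 did not. Pdia6 had a log2 fold change of -0.21 ± 0.08 (adjusted p = 0.0894). P4hb, protein disulphide isomerase itself and a subunit of prolyl hydroxylase, had 0.11 ± 0.08 (adjusted p = 0.445), and no WT liver was above its highest KO liver.

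Of the 6 degradation genes, Syvn1, the ubiquitin ligase HRD1, had 77.2, 87.0, 83.1 and 90.4 CPM in KO and 88.2, 128, 105 and 121 CPM in WT. Its log2 fold change was small and tightly estimated, at -0.39 ± 0.08 (adjusted p = 0.00355), and WT replicate 1 again lay inside the KO range. Derl3, a derlin thought to form part of the retrotranslocation channel, had 0.450, 0.645, 0.430 and 0.334 CPM in KO and 0.945, 1.82, 1.63 and 0.769 CPM in WT, from 5 to 10 reads per KO library and 10 to 27 per WT library. Every KO liver was below every WT liver, and the log2 fold change was -1.47 ± 0.38 (adjusted p = 0.0159), the largest fall among the 33 genes and the least deeply counted.

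Sel1l, the membrane partner of HRD1, and Edem1, which hands misfolded glycoproteins to it, separated the genotypes without passing the test. Sel1l had 215, 187, 182 and 191 CPM in KO and 224, 247, 240 and 218 CPM in WT, with a log2 fold change of -0.26 ± 0.09 (adjusted p = 0.0616). Edem1 had 335, 315, 300 and 319 CPM in KO and 387, 387, 386 and 381 CPM in WT, with a log2 fold change of -0.28 ± 0.10 (adjusted p = 0.0802). The 4 WT values of Edem1 were nearly equal. Herpud1, which recruits clients to HRD1, and Derl1 had log2 fold changes of -0.18 ± 0.14 and -0.07 ± 0.06 (adjusted p = 0.492 and 0.545).

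Of the sensors and transcription factors, Xbp1 encodes the factor whose messenger RNA is spliced by IRE1. Counts per gene do not part its spliced from its unspliced form. It had 152, 167, 176 and 158 CPM in KO and 189, 226, 246 and 242 CPM in WT 60-day females. No KO liver reached any WT liver, and the log2 fold change was -0.47 ± 0.12 (adjusted p = 0.0125).

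The other regulators did not pass. Eif2ak3 had 28.6, 29.3, 29.1 and 28.7 CPM in KO and 29.8, 34.1, 43.9 and 31.1 CPM in WT; the KO values were almost identical and all lay below WT (log2 fold change -0.26 ± 0.13, adjusted p = 0.236). Atf4, the factor made when PERK slows synthesis, had 141, 202, 199 and 177 CPM in KO and 157, 204, 193 and 220 CPM in WT. Ddit3 (CHOP), a factor of prolonged ER stress that ATF4 induces, had 9.07, 7.74, 8.06 and 7.89 CPM in KO and 8.03, 10.8, 7.10 and 8.22 CPM in WT. The groups overlapped for both, with log2 fold changes of -0.11 ± 0.13 for Atf4 and -0.06 ± 0.16 for Ddit3 (adjusted p = 0.699 and 0.870). Atf6 (-0.15 ± 0.13, adjusted p = 0.573) and Ern1 (0.08 ± 0.16, adjusted p = 0.840) did not pass the test either.

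The amino acid and stress targets of ATF4 did not share a direction. Asns, asparagine synthetase, had 2.70, 1.35, 3.87 and 3.01 CPM in KO and 1.18, 0.605, 1.76 and 0.922 CPM in WT. Its log2 fold change of 1.28 ± 0.41 was the only large positive one among the 33 genes and missed the threshold (adjusted p = 0.0548). Trib3, a pseudokinase that restrains ATF4 and CHOP signalling, had 2.02, 0.580, 2.09 and 1.94 CPM in KO and 3.23, 2.62, 4.49 and 1.92 CPM in WT (log2 fold change -0.90 ± 0.37, adjusted p = 0.159). Chac1, which breaks down glutathione, had a log2 fold change of -0.24 ± 0.28 (adjusted p = 0.685). Sec24d, a cargo adaptor of export vesicles, and the channel subunits Sec61a1 and Sec61b had log2 fold changes of -0.22 ± 0.07, -0.20 ± 0.07 and -0.06 ± 0.09 (adjusted p = 0.0727, 0.0986 and 0.767).

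The listed symbol Ero1lb is a synonym of Ero1b in RefSeq, and the count table has a row named Ero1b. That gene, the oxidase that recharges the isomerases in secretory cells, is not among the 33 and was looked at because of its name. It had 16.8, 12.8, 12.4 and 12.6 CPM in KO and 15.4, 27.0, 24 and 21.1 CPM in WT 60-day females. KO replicate 1 lay above WT replicate 1 and the other KO livers were below all WT livers. The log2 fold change of Ero1b was -0.69 ± 0.15 (edgeR adjusted p = 0.00493) in 60-day females and -0.03 ± 0.15 (adjusted p = 0.968) in 60-day males. In 60-day females without KO replicate 1 it was -0.80 ± 0.16 (edgeR adjusted p = 0.00309).

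**Figure D2:**
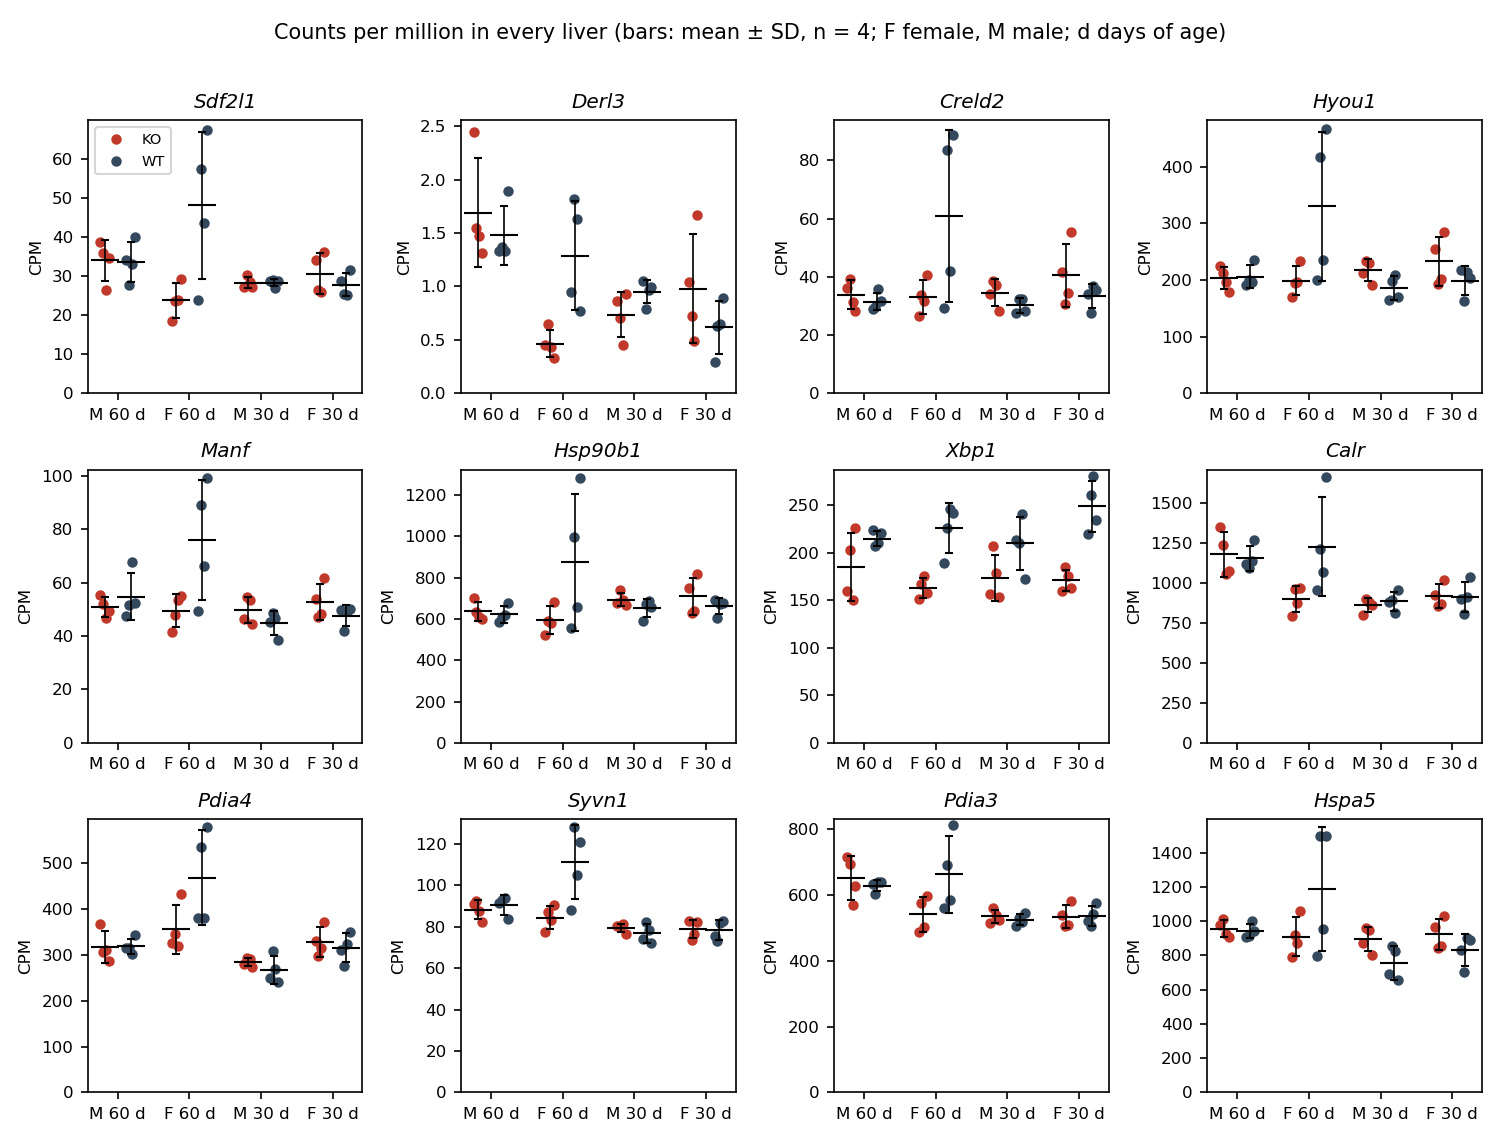
CPM (y axis, linear from 0) in every liver for the 11 genes that fell in KO 60-day females and for Hspa5; red points are KO and dark points WT, with 4 livers per group and bars for mean ± SD. WT 60-day females hold the highest liver of all 32 for Hspa5 (1498 CPM), Hsp90b1, Hyou1, Creld2 (88.6 CPM), Sdf2l1, Manf, Calr, Pdia3, Pdia4 and Syvn1, but not for Xbp1 or Derl3. The 11 genes were drawn because they were lower in KO than in WT 60-day females, so their high WT livers follow in part from that choice.

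The WT 60-day females were the most variable group for these genes. The median coefficient of variation of the 33 genes was 18.3% there, against 10.3% in KO 60-day females and 7.03% to 10.8% in the other 6 groups. Over all genes tested it was 13.7% in WT and 12.6% in KO 60-day females. WT replicates 2 and 4 were the only WT livers above the highest KO liver for 8 genes (Hspa5, Hsp90b1, Atf4, Dnajb11, Dnajc3, Pdia3, Pdia4 and Canx). For 8 more (Hyou1, Sdf2l1, Manf, Pdia6, Calr, Creld2, Herpud1 and Syvn1) replicate 3 was above as well. The shares of all genes in these 2 orders were not counted. Pairs of WT livers were also compared by chi-square per degree of freedom over all genes with 10 or more reads in the pair. It was 51.0 between replicates 1 and 2, 55.6 between 1 and 4, 18.7 between 2 and 4, and 29.6 to 36.9 otherwise. These livers thus differed over all genes and not in the ER genes alone. All 4 KO livers lay below all 4 WT livers for 5 of the 33 genes: Xbp1, Eif2ak3, Edem1, Sel1l and Derl3. The same held for 3.94% of all genes tested.

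Summed over the 33 genes, the KO livers had 7656, 8305, 7954 and 8980 CPM and the WT livers 8341, 10429, 8845 and 11967 CPM. Of 17 other lists of genes, 8 had WT replicates 2 and 4 at one end of the 8 livers. These were the 2 highest in the sums of further ATF4 targets, degradation, translocation and glycosylation, and vesicle coat genes. They were the 2 lowest in hepatocyte, stellate, endothelial and clock genes. The stellate cell markers summed to 659 to 704 CPM in KO and 432 to 617 CPM in WT. The endothelial markers summed to 362 to 518 CPM in KO and 320 to 442 CPM in WT. The 15 hepatocyte markers, none of them at 0 in any library, summed to 295082, 291819, 280845 and 307017 CPM in KO and 318794, 230795, 272464 and 239652 CPM in WT. The 23 measured chaperones of the cytosol and mitochondria summed to 2735, 2767, 2983 and 3579 CPM in KO and 2760, 3437, 2671 and 3969 CPM in WT. WT replicate 4 was the highest of the 8 livers in cytosolic and mitochondrial chaperones, and KO replicate 4 came next. The part of these lists in the ER result was not tested.

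**Figure D3:**
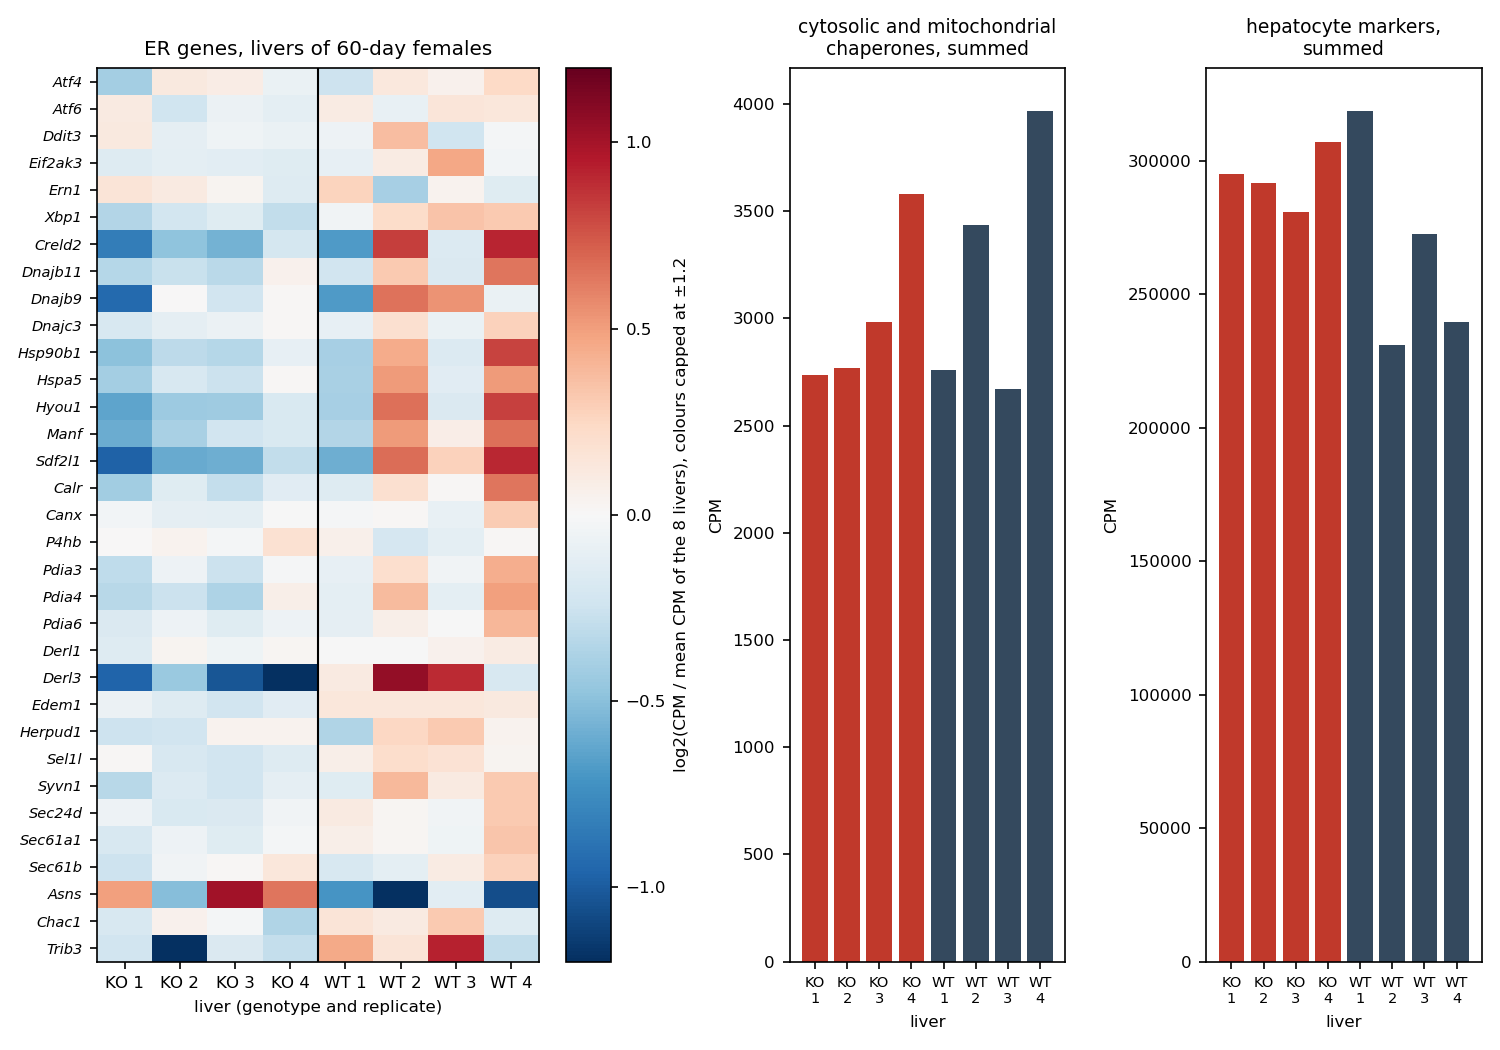
Left, log2 ratio of each gene's CPM to its mean over the 8 livers of 60-day females (rows are genes, columns KO replicates 1 to 4 then WT replicates 1 to 4; red above and blue below the mean). Right, summed CPM of cytosolic and mitochondrial chaperones and of hepatocyte markers in the same livers. At left WT 2 and WT 4 are the reddest columns for most luminal chaperones of the ER. At right WT 2 and WT 4 have the 2 lowest hepatocyte sums, 230795 and 239652 CPM.

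The count of 11 moved with single livers, as did the share of all genes, which was 6.77% in either direction with all livers. It was 4 without WT replicate 4, where 3.71% of all genes passed, 5 without WT replicate 2 (3.92%) and 15 without WT replicate 1 (8.81%). Without KO replicate 1, the library with photoreceptor transcripts, 6 genes were lower, where 1.87% of all genes were lower and 1.73% were higher. These were Sdf2l1, Syvn1, Xbp1, Derl3, Manf and Sel1l, the last of which did not pass with all livers. Calr, Creld2, Hyou1, Hsp90b1, Pdia3 and Pdia4 did not pass in that fit. Sdf2l1, Syvn1 and Xbp1 passed in each of the 8 fits that left out 1 of these livers, and Manf in 7. Calr and Derl3 passed in 6, Creld2, Hsp90b1 and Hyou1 in 5, Pdia3 in 4 and Pdia4 in 3. All 11 kept a negative fold change in all 8. Other tests gave 14 genes (DESeq2, 13 lower and Asns higher), 7 (limma-voom) and 4 (edgeR on the 16 livers of that age alone: Syvn1, Sdf2l1, Xbp1 and Derl3). Of all genes the same tests called 938, 559 and 277, against 745 by edgeR on all 32 livers. The titles of these samples are bare numbers. Those of WT replicates 2, 3 and 4 follow those of all KO livers, and that of WT replicate 1 lies among them. What the numbers stand for is not given in the labels. Genotype and title order cannot be fully told apart in these 8 livers.

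Derl3 is abundant in secretory cells such as those of the pancreas and in plasma cells, so markers of both were measured. The 18 pancreatic acinar genes, 10 to 12 of them at 0 in any one library, summed to 127, 164, 87.9 and 166 CPM in KO and 127, 122, 295 and 228 CPM in WT 60-day females. In 60-day males, where Derl3 had 1.31 to 2.45 CPM in KO and 1.33 to 1.89 CPM in WT, the same sum was 9.99 to 13.2 CPM in KO and 6.35 to 10.6 CPM in WT. The 10 measured plasma cell and B cell genes summed to 302 to 357 CPM in KO and 177 to 301 CPM in WT 60-day females, the opposite direction to Derl3. The part of either cell type in the level of Derl3 was not tested.

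Promoters of the listed genes were read for the sequence through which the unfolded protein response is best known to act. The ER stress response element is CCAAT, then 9 bases of any kind, then CCACG; ATF6 and NF-Y bind it in mammals. In the RefSeq promoters of the rat assembly GRCr8 (250 bases before to 50 after each gene's start) either strand was searched, and 27 of the 35 listed genes were found in that table by name. The element was in 9 of the 27 (33.3%) and in 22 of all 33469 promoters (0.0657%). The list was made of genes of this response, so its higher share is not a result of these livers. The 9 were Hspa5, Hsp90b1, Xbp1, Dnajc3, Calr, Canx, Creld2, Derl3 and Ero1b. Hsp90b1 was the only one of all 33469 promoters with 2 or more copies. Shown here are the 250 bases before the start of the 5 genes among the 33 that fell in KO 60-day females and hold the element, in the direction of the gene; capitals mark the CCAAT and CCACG ends, or CGTGG and ATTGG where the element lies on the other strand.
Hsp90b1, chr7:23012294-23012543, minus strand: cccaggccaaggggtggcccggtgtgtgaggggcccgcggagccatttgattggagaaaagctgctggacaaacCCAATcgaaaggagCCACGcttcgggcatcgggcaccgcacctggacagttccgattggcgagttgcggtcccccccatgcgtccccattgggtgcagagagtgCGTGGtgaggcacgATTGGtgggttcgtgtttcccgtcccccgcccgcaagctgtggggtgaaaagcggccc
Xbp1, chr14:84604373-84604622, plus strand: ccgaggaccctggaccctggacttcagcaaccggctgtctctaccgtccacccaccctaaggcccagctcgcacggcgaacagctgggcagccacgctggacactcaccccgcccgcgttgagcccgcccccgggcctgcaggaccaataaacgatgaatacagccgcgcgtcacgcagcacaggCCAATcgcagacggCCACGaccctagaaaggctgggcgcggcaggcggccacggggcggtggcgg
Calr, chr19:40213117-40213366, plus strand: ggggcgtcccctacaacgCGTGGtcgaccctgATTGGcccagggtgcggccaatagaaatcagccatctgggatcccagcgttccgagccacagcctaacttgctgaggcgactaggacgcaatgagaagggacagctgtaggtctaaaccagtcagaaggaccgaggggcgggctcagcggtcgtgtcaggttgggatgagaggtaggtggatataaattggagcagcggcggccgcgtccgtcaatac
Creld2, chr7:121789134-121789383, plus strand: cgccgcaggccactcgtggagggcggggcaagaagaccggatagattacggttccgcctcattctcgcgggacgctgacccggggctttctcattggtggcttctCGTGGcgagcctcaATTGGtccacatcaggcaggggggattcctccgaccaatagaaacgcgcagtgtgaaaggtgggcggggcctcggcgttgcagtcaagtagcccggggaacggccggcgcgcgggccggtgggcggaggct
Derl3, chr20:12766466-12766715, minus strand: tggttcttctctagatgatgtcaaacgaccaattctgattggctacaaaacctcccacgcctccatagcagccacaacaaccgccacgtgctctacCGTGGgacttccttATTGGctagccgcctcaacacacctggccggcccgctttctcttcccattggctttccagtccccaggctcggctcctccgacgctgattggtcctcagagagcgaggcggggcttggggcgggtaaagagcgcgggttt

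The element began 176 and 72 bases before the start in Hsp90b1, 65 bases before it in Xbp1, 232 in Calr, 145 in Creld2 and 154 in Derl3. Hspa5, Dnajc3 and Canx also held it and did not pass the test in 60-day females, with log2 fold changes of -0.38 ± 0.14, -0.17 ± 0.08 and -0.13 ± 0.07. Sdf2l1, Hyou1, Pdia4 and Syvn1 passed the test with no copy in this window, which says only that these letters are not there. Manf and Pdia3, which also passed, had no promoter in that table and were not searched. A second form, ATTGG, 1 base and CCACG, was in the promoters of Hyou1 (2 copies), Dnajb11 and Herpud1, which is 11.1% of the 27 and 0.0508% of all. The XBP1-type element TGACGTGG was in Hyou1, 3.7% of the 27 and 0.595% of all. TTGCATCA, a composite site of the kind bound by ATF4, was in Herpud1 and Chac1, 7.41% of the 27 and 0.795% of all. The first 3 forms share the letters CCACG, or CGTGG on the other strand, so that one stretch can match more than one of them. A match is a run of letters, not a measured binding site. Of the 13 other promoters with the ER stress response element, 8 belonged to 7 genes tested here. In 60-day females 1 of the 7 was lower in KO, 0 were higher, and the other 6 had log2 fold changes of -0.32 to 0.68. The gene that fell was Ppm1l, a phosphatase that acts on IRE1 in mouse (-0.62 ± 0.18, adjusted p = 0.0312), named after its value was seen. Without KO replicate 1 it did not pass (-0.67 ± 0.20, adjusted p = 0.0517).

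Other genes of the pathway were read from wider lists, whose counts are to be set against the 3.29% of all genes that were lower and the 3.48% that were higher. Of 19 further sensor and signalling genes 0 passed edgeR's test between KO and WT 60-day females (median log2 fold change -0.07), and of 27 further degradation genes 0 passed (median -0.05). DESeq2 and limma-voom called 0 in both lists, and 3 genes of each had an unadjusted p below 0.05, where 20.8% of all genes did. Of 36 further folding enzymes 1 rose, the prolyl isomerase Fkbp9 (0.27 ± 0.08, adjusted p = 0.0311). Of 32 translocation and glycosylation genes 1 rose, the oligosaccharyltransferase subunit Tusc3 (1.51 ± 0.30, adjusted p = 0.00232). Of 29 vesicle coat and export genes 2 fell, the cargo receptors Tmed5 (-0.42 ± 0.09, adjusted p = 0.00664) and Tmed2 (-0.23 ± 0.07, adjusted p = 0.0400).

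Tmed5 had 43.7, 50.7, 42.6 and 47.7 CPM in KO and 58.5, 62.9, 65.1 and 60.3 CPM in WT, with no overlap. Of 21 further ATF4 targets 2 rose: Fgf21, a liver hormone (1.43 ± 0.43, adjusted p = 0.0397), and Aldh1l2, a mitochondrial folate enzyme (0.61 ± 0.17, adjusted p = 0.0273). Of 21 chaperones of the cytosol and mitochondria 1 rose, Hspa4l (1.23 ± 0.29, adjusted p = 0.00972). Of 13 clock genes 4 rose and 1 fell in KO 60-day females. Those with the smallest adjusted p were Per3 (1.80 ± 0.31, adjusted p = 0.000696), Per2 (1.60 ± 0.28, adjusted p = 0.000987) and Tef (0.94 ± 0.18, adjusted p = 0.00188). Without KO replicate 1 the genes named here that still passed included Fkbp9, Tusc3 (0.99 ± 0.24), Tmed5 (-0.39 ± 0.10), Per3 (1.34 ± 0.27), Per2 and Tef, while Tmed2, Fgf21 (adjusted p = 0.101), Aldh1l2 (0.0795) and Hspa4l (0.0671) did not. The hour of tissue collection is not given in the labels, and its part in these values was not tested.

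In 60-day males 0 of the 33 genes differed between KO and WT livers by edgeR, DESeq2 or limma-voom, where 0.209% of all genes did. Their median log2 fold change was 0.00. At an unadjusted p below 0.05, which 10.8% of all genes passed, there was 1 gene, Atf4. It had 134, 140, 112 and 152 CPM in KO and 159, 158, 244 and 175 CPM in WT 60-day males, so every KO liver was below every WT liver, and the log2 fold change was -0.45 ± 0.13 (adjusted p = 0.175).

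The chaperones were level in these males. Hspa5 had 978, 1013, 923 and 910 CPM in KO and 908, 914, 1003 and 942 CPM in WT, and Sdf2l1 had 38.8, 36.0, 26.5 and 34.6 CPM in KO and 34.0, 27.6, 33.1 and 39.9 CPM in WT. The 9 luminal chaperones and cofactors had log2 fold changes of -0.11 to 0.11. Among the other genes of the pathway, Atf3 (-1.81 ± 0.38, adjusted p = 0.0315) and Cebpb (-1.01 ± 0.17, adjusted p = 0.00792), both transcription factors of stress responses, fell in KO 60-day males. Atf3 had 0.947, 0.813, 1.05 and 1.97 CPM in KO and 1.86, 4.29, 6.29 and 4.28 CPM in WT, with 1 KO liver above the lowest WT liver, and DESeq2 and limma-voom did not call it. Cebpb had 32.6, 35.1, 34.4 and 47.4 CPM in KO and 66.3, 83.1, 74.4 and 77.0 CPM in WT, with no overlap.

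The difference between the sexes in the effect of the genotype was tested directly. At 60 days 0 of the 33 interaction terms (KO minus WT in males, minus KO minus WT in females) passed edgeR's test, where 0.136% of all genes did. The median term was 0.26 against -0.015 over all genes. At an unadjusted p below 0.05, which 10.6% of all genes passed, there were 14 genes, all with a positive term. DESeq2 called 1, Sdf2l1, and limma-voom 0. Of all genes DESeq2 and limma-voom called 89 and 10, against 15 by edgeR. Without WT replicate 1 of the 60-day females edgeR called 5 (Syvn1, Sdf2l1, Hsp90b1, Creld2 and Hyou1), where 1.13% of all genes passed. The term of Sdf2l1 was 1.03 ± 0.27 (adjusted p = 0.127) and that of Derl3 1.67 ± 0.50 (adjusted p = 0.185). The fall in 60-day females is therefore not shown to differ from the values in males.

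In 30-day females 1 of the 33 genes was lower in KO livers, where 0.182% of all genes were lower and 0.118% were higher. The gene was Xbp1, with 160, 185, 176 and 163 CPM in KO and 220, 261, 281 and 235 CPM in WT. The groups were well apart, and the log2 fold change was -0.54 ± 0.11 (adjusted p = 0.0323). The call did not hold in 7 of the 8 fits that left out 1 of these livers, the exception being the fit without WT replicate 4. Log2 fold changes in these fits ran from -0.60 to -0.48, with adjusted p up to 0.118. The titles of all 4 KO samples end in 2, as does that of WT replicate 4, while those of the other 3 WT samples end in 1; what this number stands for is not given in the labels. With the number as a covariate the log2 fold change of Xbp1 was -0.48 and did not pass (adjusted p = 0.136), and genotype and title number cannot be fully told apart in these 8 livers. The same livers enter the comparisons with age in females. The other genes did not pass. Hspa5 had 965, 844, 852 and 1027 CPM in KO and 831, 700, 900 and 891 CPM in WT, and the median log2 fold change of the 33 genes was 0.07.

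In 30-day males 0 of the 33 genes differed by edgeR, DESeq2 or limma-voom, where 0.0545% of all genes did. At an unadjusted p below 0.05, which 5.94% of all genes passed, there were 3, Atf6 and Sec24d higher and Xbp1 lower. Xbp1 had 157, 207, 179 and 154 CPM in KO and 214, 211, 241 and 173 CPM in WT 30-day males, which overlapped (log2 fold change -0.27 ± 0.11, adjusted p = 0.744). In 60-day males it had 160, 203, 150 and 226 CPM in KO and 224, 207, 210 and 221 CPM in WT, with 1 KO liver above all WT livers (log2 fold change -0.22 ± 0.12, adjusted p = 0.505). Mean Xbp1 was lower in KO than in WT livers in all 4 comparisons. Of the interaction terms between sex and genotype at 30 days 0 of 33 passed by edgeR, DESeq2 or limma-voom, and 0.0% of all genes did. An unadjusted p below 0.05 was found for 2 of the 33 terms, against 5.51% of all genes.

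The change with age was then measured within each genotype. Titles of the 30-day samples hold a hyphen and the letter L, and those of the 60-day samples are bare numbers. Libraries held 16806943 to 21954929 reads on genes at 30 days and 12951969 to 17133332 at 60 days. The labels name no batch, so age and any difference in how the samples of each age were handled cannot be told apart. At 60 against 30 days 3 of the 33 genes rose and 3 fell in KO females, where 10.6% of all genes rose and 12.1% fell. In WT females 20 rose and 1 fell, where 16.0% rose and 17.1% fell. The median log2 fold change of the 33 genes was -0.02 in KO and 0.40 in WT females. The KO total of 6 was 2 without KO replicate 1 at 60 days, and 3 without KO replicate 3 at 60 days or KO replicate 4 at 30 days, where the share of all genes that passed, 22.7% with all livers, was 18.2% without KO replicate 4 at 30 days and 19.9% without KO replicate 1 at 60 days. Markers of other liver cells moved with age as well. In KO females 4 of 10 stellate cell markers fell (median -0.41), and 2 of 11 Kupffer cell markers fell and 0 rose (median 0.08). In WT females 10 of 10 stellate cell markers fell (median -1.29), and 5 of 11 Kupffer cell markers rose and 1 fell (median 0.49). Their part in the change of the 33 genes was not tested.

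The difference between the genotypes in this change, 60 minus 30 days in KO minus the same in WT, passed for 5 of the 33 genes in females, all lower, where 1.55% of all genes were lower and 1.42% higher. These were Derl3 (-2.13 ± 0.51, adjusted p = 0.0198), Sdf2l1 (-1.15 ± 0.27, adjusted p = 0.0189), Hyou1 (-0.96 ± 0.26, adjusted p = 0.0364), Manf (-0.76 ± 0.21, adjusted p = 0.0383) and Syvn1 (-0.40 ± 0.11, adjusted p = 0.0490). The median term of the 33 was -0.35. This difference uses the same 60-day female livers as the comparison above and is not separate evidence. For the same term 4 of 10 stellate cell markers were higher (median 0.82, all positive) and 0 of 11 Kupffer cell markers passed (median -0.36, all negative); their part was not tested. The count of 5 was 1 without WT replicate 2 or 4 at 60 days or KO replicate 4 at 30 days, where 1.87%, 1.94% and 2.16% of all genes passed in either direction, against 2.96% with all livers. It was 12 without WT replicate 1 at 60 days, where 5.36% passed. It was 2 without KO replicate 1 at 60 days, KO replicate 1 at 30 days or WT replicate 1 or 2 at 30 days (1.73% to 1.95% of all genes), and 3 without WT replicate 3 at 30 days (2.68%). By limma-voom it was 2 and by edgeR on the 16 female livers alone it was 0. Of all genes these called 249 and 93, against 326 by edgeR on all 32 livers.

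**Figure D4:**
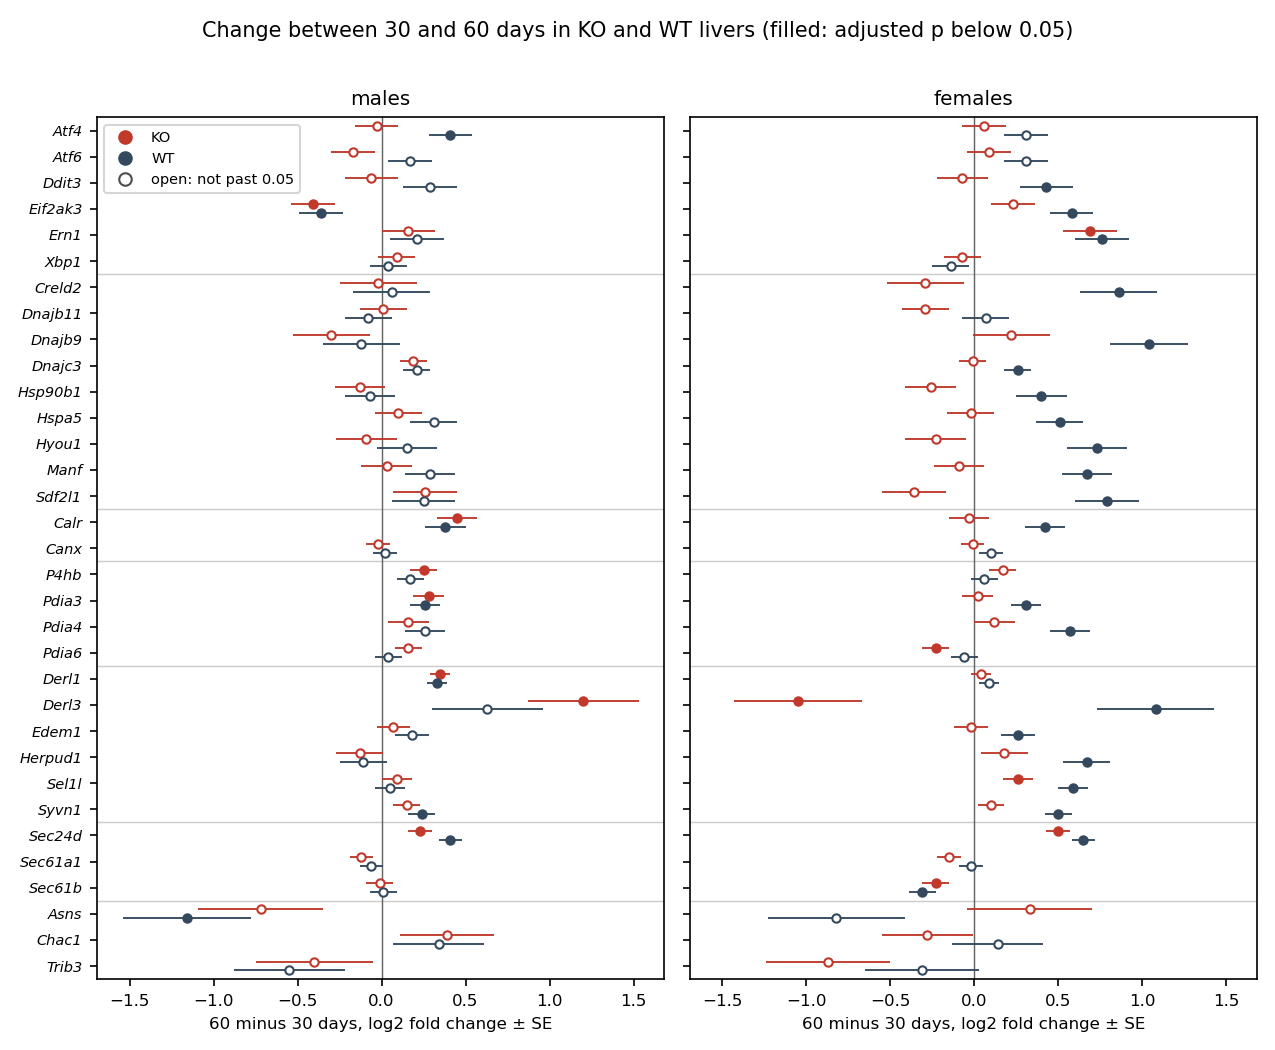
Log2 fold change from 60 minus 30 days (x axis) ± SE of the 33 genes (rows) in males and females; red is KO, dark is WT, and filled points have an adjusted p below 0.05. In females 20 WT points right of 0 are filled against 3 KO points, while in males 6 of each are.

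Most chaperones rose with age in WT females. Sdf2l1 had 23.9, 57.3, 43.6 and 67.4 CPM at 60 days and 28.8, 25.5, 25.2 and 31.4 CPM at 30 days in WT females (log2 fold change 0.79 ± 0.19, adjusted p = 0.00195). In KO females it had 18.4, 23.7, 23.9 and 29.3 CPM at 60 days and 34.1, 26.3, 25.8 and 36.2 CPM at 30 days (-0.36 ± 0.19, adjusted p = 0.200). Dnajb9, a cochaperone that restrains IRE1, showed one of the largest rises, with 36.3, 91.3, 84.5 and 55.0 CPM at 60 days and 25.5, 28.8, 39.5 and 36.2 CPM at 30 days in WT females (1.04 ± 0.23, adjusted p = 0.000856).

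In KO females the values of Dnajb9 overlapped, with 30.4, 58.0, 49.6 and 58.7 CPM at 60 days and 46.8, 32.4, 39.8 and 49.6 CPM at 30 days (0.22 ± 0.23, adjusted p = 0.531). Hspa5 changed by 0.51 ± 0.14 in WT females (adjusted p = 0.00485) and by -0.02 ± 0.14 in KO females (adjusted p = 0.948). Of the PERK and ATF4 genes, Eif2ak3 rose by 0.58 ± 0.13 (adjusted p = 0.000723) and Ddit3 by 0.43 ± 0.16 (adjusted p = 0.0336) in WT females. Atf4 did not pass there (0.31 ± 0.13, adjusted p = 0.0755).

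Derl3 turned in opposite directions in the genotypes. In KO females it had 0.450, 0.645, 0.430 and 0.334 CPM at 60 days and 1.04, 0.719, 0.490 and 1.67 CPM at 30 days, and fell (-1.05 ± 0.38, adjusted p = 0.0430). In WT females it had 0.945, 1.82, 1.63 and 0.769 CPM at 60 days and 0.293, 0.628, 0.651 and 0.892 CPM at 30 days, and rose (1.08 ± 0.35, adjusted p = 0.0167). The libraries held 5 to 31 reads of the gene.

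A few genes moved with age in both genotypes of females. Ern1 rose by 0.69 ± 0.16 in KO (adjusted p = 0.00205) and by 0.76 ± 0.16 in WT females (adjusted p = 0.000546). Sec24d rose by 0.50 ± 0.07 in KO (adjusted p = 9.33e-06) and by 0.65 ± 0.07 in WT females (adjusted p = 5.51e-08). Sel1l rose by 0.26 ± 0.09 in KO (adjusted p = 0.0277) and by 0.59 ± 0.09 in WT females (adjusted p = 3.7e-06). Sec61b, a small subunit of the channel, fell by 0.23 in KO and by 0.31 in WT females. Pdia6 fell in KO females by 0.23 (adjusted p = 0.0273) and had -0.06 ± 0.08 in WT females.

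In KO males 6 genes rose and 1 fell at 60 against 30 days, where 14.0% of all genes rose and 14.5% fell. In WT males 6 rose and 2 fell, where 15.7% rose and 15.8% fell. Counts of this size are near the shares of all genes. Calr, Pdia3, Derl1 and Sec24d rose in both genotypes; P4hb and Derl3 rose in KO males, and Atf4 and Syvn1 in WT males. Eif2ak3 fell in both (-0.41 ± 0.13 in KO and -0.36 ± 0.13 in WT males), while its change in WT females was positive. Asns fell in WT males (-1.16 ± 0.38, adjusted p = 0.0196). The age-by-genotype term passed for 0 of the 33 genes in males by edgeR, DESeq2 or limma-voom, where 0.00909% of all genes passed. An unadjusted p below 0.05 was found for 1 of the 33, Atf4, against 5.34% of all genes. The counts moved by more than 1.5 times without single livers: to 4 in KO males without KO replicate 2 at 60 days (25.4% of all genes, against 28.4% with all livers), and to 5 in WT males without WT replicate 1 at 30 days or WT replicate 2 at 60 days (27.2% and 28.6%, against 31.5%). Without scaling beyond the library totals the median of all genes moved to between -0.21 and -0.11 in the 4 age comparisons. The 33 genes then counted 2 higher and 8 lower in KO females, 15 and 1 in WT females, 2 and 4 in KO males and 2 and 3 in WT males. Of all genes 3488, 3808, 4293 and 4072 then passed in that order, against 2498, 3643, 3127 and 3466 with TMM scaling.

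Males and females were compared within each genotype. In 60-day KO rats 7 of the 33 genes were higher and 4 lower in males than in females, where 9.63% of all genes were higher and 8.89% lower. In 60-day WT rats 2 were higher and 12 lower in males, where 13.7% of all genes were higher and 12.7% lower. The 4 lower in KO males were Ern1, Eif2ak3, Sel1l and Atf4, and the 12 lower in WT males were Syvn1, Ern1, Sdf2l1, Sec24d, Pdia4, Eif2ak3, Dnajb9, Sel1l, Hsp90b1, Creld2, Hyou1 and Manf. The 2 higher in WT males were Derl1 and Sec61b. The WT comparison takes in the variable 60-day WT females, and without their replicate 2 it counted 9 genes in all, where 23.3% of all genes passed, against 26.4% with all livers. The KO comparison counted 6 in all without KO male replicate 1 or 2 or without KO female replicate 1, the library with photoreceptor transcripts, where 15.0%, 16.9% and 15.1% passed, against 18.5%. Of 11 Kupffer cell markers 0 were lower and 1 was higher in KO males than in KO females (median -0.16), and 5 were lower and 0 higher in WT males than in WT females (median -0.59); their part in the values of the 33 genes was not tested.

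The sensor genes Ern1 and Eif2ak3 were lower in males of both genotypes at 60 days. Eif2ak3 had 23.9, 19.6, 19.3 and 16.5 CPM in KO males and 28.6, 29.3, 29.1 and 28.7 CPM in KO females, which did not overlap (-0.55 ± 0.13, adjusted p = 0.00309). In WT it had 21.9, 18.9, 15.4 and 19.0 CPM in males and 29.8, 34.1, 43.9 and 31.1 CPM in females, again with no overlap (-0.89 ± 0.13, adjusted p = 5.21e-06). Ern1 was lower by -0.56 ± 0.16 in KO and -0.54 ± 0.16 in WT males (adjusted p = 0.0142 in both).

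Derl1 was higher in males in both genotypes. It had 145, 127, 117 and 134 CPM in KO males and 93.2, 106, 99.6 and 105 CPM in KO females (0.38 ± 0.06, adjusted p = 3.71e-05). In WT it had 144, 130, 132 and 131 CPM in males and 103, 103, 107 and 111 CPM in females (0.34 ± 0.06, adjusted p = 0.000104). Males and females did not overlap in either genotype. Sec61b was higher in males by 0.26 in both genotypes.

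Derl3, Pdia6, Calr, Pdia3 and Dnajc3 were higher in males in KO rats, with log2 fold changes of 1.85 ± 0.37, 0.44 ± 0.08, 0.39 ± 0.12, 0.27 ± 0.09 and 0.23 ± 0.08. In WT rats the same 5 genes had 0.17 ± 0.33, 0.13 ± 0.08, -0.09 ± 0.12, -0.08 ± 0.09 and 0.06 ± 0.08 and did not pass. The difference between these sex effects is the interaction term at 60 days given above, which passed for 0 of the 33 genes by edgeR or limma-voom. At 30 days 0 of the 33 genes differed between males and females in KO rats, where 2.24% of all genes did, and 0 in WT rats, where 2.07% did. The titles of 4 of 4 KO females and of 1 of 4 KO males end in 2 at that age. Sex and title number therefore cannot be fully told apart in these KO rats. The same livers enter the sex-by-genotype term at 30 days. DESeq2 and limma-voom called 0 as well. An unadjusted p below 0.05 was found for 2 genes in KO and 3 in WT rats, against 13.2% and 12.9% of all genes.

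Across all 8 groups, WT 60-day females had the highest mean of 18 of the 33 genes and KO 60-day females the lowest mean of 10. WT 30-day males had the lowest mean of another 10. These counts were made for the 33 genes alone, so the share over all genes is not known here. For Hspa5 the means were 956 ± 48.1 CPM in KO and 942 ± 43.4 CPM in WT 60-day males and 910 ± 111 CPM in KO and 1186 ± 363 CPM in WT 60-day females (SD, n = 4). At 30 days they were 895 ± 72.3 CPM in KO and 757 ± 98.0 CPM in WT males and 922 ± 89.2 CPM in KO and 831 ± 92.1 CPM in WT females. Ordered by mean, WT 60-day females came first and WT 30-day males last, and the mean ± SD ranges of all neighbours in that order overlapped.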

How the data were processed

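Messenger RNA of 32 rat livers had been extracted with Trizol and made into libraries with a NEBNext Ultra II stranded kit, per the labels' protocols. The submitters' processing notes name STAR, Cufflinks, limma and Rnor_5.0; the strand setting, the roles of these tools and their versions are not stated there. Raw counts per gene were deposited by the authors, with a table of log2 CPM for 11344 genes. The deposited log2 values, with a prior count of 0.5, differ from values recomputed from the counts by at most 5.0e-09, so the counts were used. Rows without a gene held 18.05% to 21.18% (no feature) and 0.262% to 0.648% (ambiguous) of reads and were left out of library sizes.

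Counts were fitted in edgeR 4.0.16 (R 4.3.3): a minimum count of 10 for groups of 4, TMM factors (0.901 to 1.11), 8 group means and the quasi-likelihood test with 24 residual degrees of freedom, with Benjamini-Hochberg adjustment over 11002 genes and a threshold of 0.05. The biological coefficient of variation was 0.148. Alternatives were DESeq2 1.42.0, limma-voom (limma 3.58.1), 3 other scalings, no filter, fits to one age or sex, the number in the sample titles as a covariate, and leaving out each liver. Members and lists were chosen with earlier results of these data known. Named are all 33 genes, Serpina6, and up to 3 genes of each other pathway list by smallest adjusted p. Promoters are RefSeq's, from GRCr8, and carry no measurement here.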

Additional observations from a re-analysis of the deposited data

Results flagged for a closer look

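In females the change with age differed between KO and WT livers, by edgeR's test of the age-by-genotype term, for 5 of the 33 genes, all lower, where 1.55% of all genes were lower and 1.42% higher. The term (60 minus 30 days in KO, minus the same in WT) was -2.13 for Derl3, -1.15 for Sdf2l1, -0.96 for Hyou1, -0.76 for Manf and -0.40 for Syvn1 on the log2 scale. With single livers left out the count ran from 1 to 12. The term uses the same 60-day female livers as KO against WT at that age and is not separate evidence.

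One liver stood far from the other 3 of its group in 4 cases, judged by its gap to the nearest value over the group's range against Dixon's 95% critical value for 4 samples. Sdf2l1 had 26.9 CPM in WT replicate 3 of the 30-day males, against 28.6, 28.7 and 28.9 CPM in the others. Manf had 41.8 CPM in WT replicate 2 of the 30-day females, against 49.4, 49.6 and 50.1 CPM. Pdia3 had 604 CPM in WT replicate 2 of the 60-day males, against 634, 638 and 638 CPM. Derl3 had 1.89 CPM in WT replicate 4 of the 60-day males, against 1.33, 1.33 and 1.37 CPM. Chance marks about 1 in 20 groups, or 5.6 of the 112 groups looked at for 14 genes, so 4 is no more than chance gives.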

How the results depend on the processing

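The 11 genes that fell in KO 60-day females were the same 11 under 3 other scalings and without the filter. By limma-voom they were 7 and in the fit to 60-day livers alone 4, where 559 and 277 of all genes passed, against 745. Xbp1 in 30-day females was not called without scaling or with the title number as covariate (0 of 33 in both). Of all genes 27 and 8 passed there, against 33 with TMM scaling and no covariate. The sex-by-genotype count at 60 days was 1 by DESeq2, which called 89 of all genes, against 15 by edgeR. The age-by-genotype count in females was 2 by limma-voom and 0 in the one-sex fit, where 249 and 93 of all genes passed, against 326. Males against females gave 4 (60-day KO), 9 (60-day WT) and 1 (30-day WT, Herpud1) in one-age fits. Of all genes 1417, 2243 and 358 passed in those fits, against 2037, 2901 and 228 in the fit to all livers. Age gave 10 without scaling and 3 in the one-sex fit for KO females, and 5 without scaling and 13 in the one-sex fit for WT males. Of all genes 3488 and 2169 passed there in KO females, against 2498, and 4072 and 3454 in WT males, against 3466. One-age and one-sex fits hold 16 livers in place of 32; the causes of these moves were not tested.

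With 1 liver left out, KO against WT gave 4 to 15 genes in 60-day females, 0 to 0 in 60-day males, 0 to 1 in 30-day females and 0 to 0 in 30-day males. Shares of all genes were 3.6% to 8.81%, 0.018% to 0.414%, 0.0361% to 0.541% and 0.00902% to 0.0632% in that order. The sex-by-genotype term gave 0 to 5 at 60 days (0.0451% to 1.13% of all genes) and 0 to 0 at 30 days (0.0%). The age-by-genotype term gave 1 to 12 in females (1.73% to 5.36% of all genes) and 0 to 0 in males (0.0% to 0.0181%). Males against females gave 6 to 12 (60-day KO), 9 to 15 (60-day WT), 0 to 0 (30-day KO) and 0 to 0 (30-day WT). Here 15.0% to 18.3%, 22.9% to 25.8%, 1.12% to 2.03% and 1.07% to 1.89% of all genes passed. Age gave 2 to 5 in KO females, 16 to 21 in WT females, 4 to 7 in KO males and 5 to 7 in WT males. Here 18.2% to 20.7%, 27.6% to 32.6%, 23.3% to 26.7% and 27.2% to 29.6% of all genes passed. Of the genes that passed in any comparison 0 changed sign with 1 liver left out. Among those that did not pass in 60-day females 3 of 33 did (Ddit3, Ern1 and Sec61b), as did 19 of 33 in 60-day males. Ddit3 in 60-day females ran from -0.15 to 0.07 and was positive without WT replicate 2. No paired analysis was possible because no label ties an animal of one group to one of another. Derl3, with 5 to 31 reads a library, is the gene whose fold change depth limits most.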
